A study of Mus musculus with 6 samples.

Results

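Transcript levels of 37 genes of epithelial junctions and keratins were compared between 4T1 cells treated with cepharanthine (CEP) and 4T1 cells given the solvent dimethyl sulfoxide (DMSO). The genes were chosen by symbol from a list of keratin, tight junction, desmosome, adherens junction, polarity and epithelial regulator genes. Each symbol stood in 1 row of the deposited table of 55487 genes, and 34 of the 37 had enough reads to be tested, out of 13405 genes tested in all. The CEP group was treated with 10 µM cepharanthine, a bisbenzylisoquinoline alkaloid of Stephania plants, and the DMSO group received DMSO alone in equal volume, both for 12 h. Each group had 3 libraries of poly(A)-selected RNA. All 6 came from 4T1, an established mouse mammary carcinoma line treated in vitro, so no normal epithelium was sampled. Nothing in the labels says whether the 3 libraries of a group came from separate cultures, so the p-values measure the spread between these libraries, which may be technical.

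Epithelial cells hold together through several belts and spots of adhesion. Tight junctions seal the space between neighbouring cells: claudins and occludin cross the membrane, and zonula occludens proteins and cingulin tie them to actin. Adherens junctions join cells through cadherins and catenins, and desmosomes join them through desmosomal cadherins that are linked by plakoglobin, plakophilins and desmoplakin to the keratin filaments inside the cell. Keratins pair as 1 type I and 1 type II chain, and the pair of keratin 18 and keratin 8 is typical of simple epithelia, among them the luminal cells of the mammary gland, whereas keratins 14 and 5 mark basal cells.

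Counts summed over genes ran from 15299261 to 19411816 in the CEP libraries and from 15334482 to 19655010 in the DMSO libraries. One treated library, CEP replicate 1, was less far from the controls than its fellows. On the first principal component, which held 60.7% of the variance, it scored 10.1, with 28.5 and 30.4 for CEP replicates 2 and 3, against -23.8 to -21.9 for the DMSO libraries. Levels are normalised read counts in CPM, scaled to library size by the trimmed mean of M values (TMM), and are listed in the order of replicates 1, 2 and 3. Differences are log2 fold changes, CEP minus DMSO, ± SE from edgeR's quasi-likelihood test. A gene was called changed at a Benjamini-Hochberg adjusted p under 0.05 over all genes tested. Epithelial transcripts were present: among Epcam, Cdh1, Krt8 and Krt18 the lowest value in any library was 163 CPM, for Epcam in DMSO replicate 1. Of these, Epcam, Krt8 and Krt18 belong to the 37 genes compared here. Mesenchymal transcripts were present as well: those of the intermediate filament gene Vim stood at 3321, 2832 and 2917 CPM in the CEP libraries, against 3279, 3301 and 3262 CPM in the DMSO libraries. The fibronectin gene Fn1 had 3527, 3720 and 3741 CPM with CEP and 3275, 3313 and 3161 CPM with DMSO. Zeb2 and Twist1 had means of 62.1 and 63.6 CPM with DMSO. Cdh2 had no reads, and Acta2 and Snai2 did not exceed 0.291 CPM in any library. Of 7 leukocyte markers 3 had no reads, Ptprc did not exceed 0.177 CPM, and the summed level of the list, 38.9 to 54.5 CPM with CEP and 15.1 to 19.5 CPM with DMSO, was almost wholly Cd68, which encodes a lysosomal membrane protein. Of 7 fibroblast markers Col3a1 and Lum had no reads, and the summed level, 85.7 to 101 CPM with CEP and 62.8 to 69.5 CPM with DMSO, was almost wholly the growth factor receptor gene Pdgfra. Their part in the junction and keratin results was not tested. The 5 endothelial markers summed to at most 0.591 CPM in any library, with no reads for Kdr.

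With cepharanthine, transcripts of 3 tight junction claudins, of the scaffold proteins ZO-3 and cingulin and of the desmosomal plaque proteins plakoglobin and desmoplakin rose, while transcripts of the major simple-epithelial keratins, keratin 8, keratin 18 and keratin 7, and of the scaffold ZO-1 fell. Among the 34, a rise was called for 17 and a fall for 7, and 10 missed the threshold, so 70.6% were called, beside 38.2% of all genes tested. The 37 genes were chosen with earlier results of these data known. This share and those that follow therefore do not test them as a set. The 17 that rose compare with 20.1% of all genes, and the share that fell was 20.6%, beside 18.2%. A rise of 2-fold or more was found for 3 genes, Cldn4, Cldn1 and Tjp3, beside 2.44% of all genes, and a fall of that size for 0 genes, beside 0.463%. The median log2 fold change of the 34 was 0.34, beside 0.01 for all genes, and the median of its absolute size was 0.36, beside 0.21. The groups were fully separated for 28 of the 34, beside 49.9% of all genes. In 20 the CEP values were the higher ones, beside 25.2% of all genes, and in 8 the lower ones, beside 24.7%. Every one of the 34 had at least 36 reads in each library, so none passed the filter through 1 group alone. In bulk RNA, a change in RNA per cell and a change in the share of cells that carry it cannot be told apart. With CEP replicate 1 left out, 19 of the junction and keratin genes rose and 9 fell, beside 3391 and 3514 of the 13650 genes tested in that fit. With upper quartile scaling 17 rose and 8 fell, beside 2387 and 2960 of 13405 genes, so the balance of calls over all genes, 2691 higher and 2434 lower with TMM, turned in both of these fits.

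**Figure D1:**
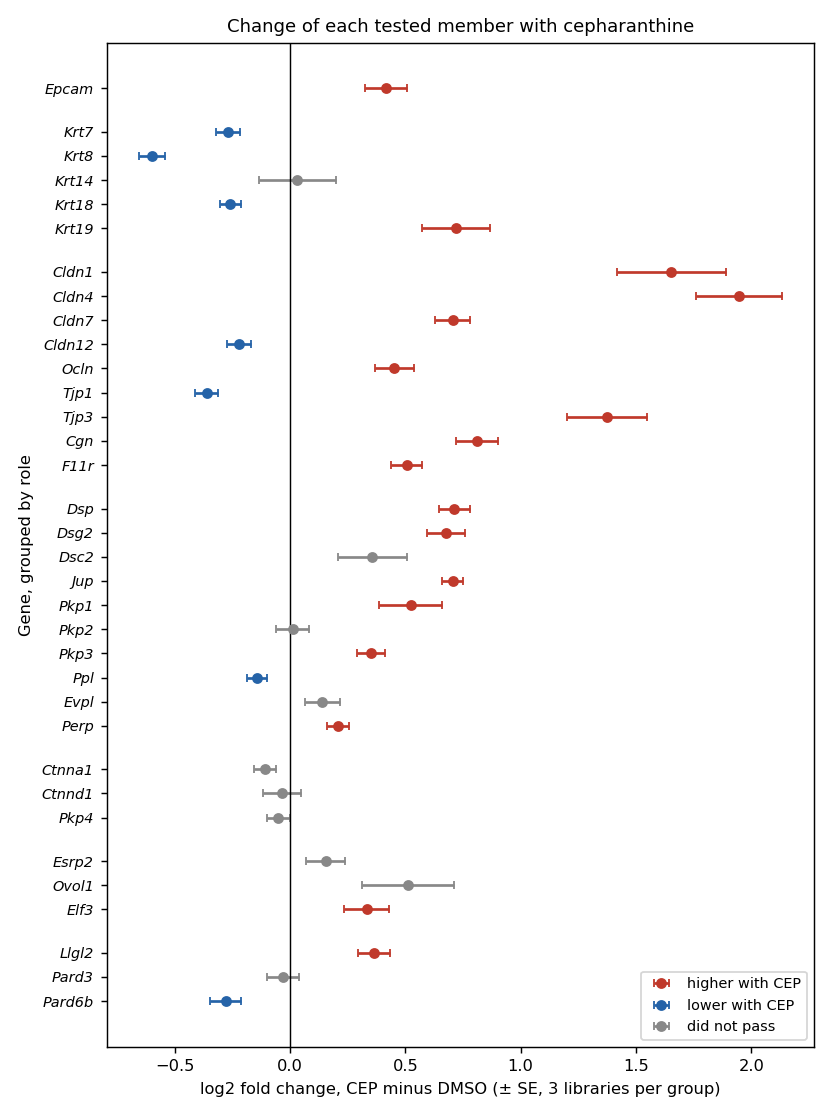
Log2 fold change (CEP minus DMSO, horizontal axis) of the 34 tested junction and keratin genes, grouped by role down the page, with bars of 1 SE and 3 libraries per group. Red points are the 17 genes that rose, blue points the 7 that fell and grey points the 10 that did not pass; Cldn4 lies farthest right at 1.95 and Krt8 farthest left at -0.60.

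The claudins, the membrane-spanning strands of the tight junction, included the gene with the largest rise of the 34 and a gene that fell. Cldn4, a claudin that tightens the paracellular barrier, had 274, 425 and 408 CPM in the CEP libraries, against 99.1, 97.4 and 90.9 CPM in the DMSO libraries. All CEP values lay above all DMSO values, CEP replicate 1 was the lowest of the treated libraries, and the rise was 3.85-fold (log2 fold change 1.95 ± 0.188, edgeR adjusted p = 9.25e-04). Cldn1, the gene of a claudin needed for the barrier of the epidermis, was scarce, with 4.97, 9.30 and 9.09 CPM in the CEP libraries, against 2.59, 2.36 and 2.40 CPM in the DMSO libraries. It rose 3.15-fold with no overlap between the groups (log2 fold change 1.65 ± 0.236, edgeR adjusted p = 1.26e-04). Cldn7, whose product lies along the lateral membrane as well as in the tight junction, had 35.8, 37.8 and 38.7 CPM in the CEP libraries, against 21.8, 22.6 and 24.4 CPM in the DMSO libraries, again without overlap, and rose by 0.70 ± 0.0753 on the log2 scale (edgeR adjusted p = 7.23e-06). Cldn12, an atypical claudin that lacks the carboxy-terminal motif by which other claudins bind ZO proteins, went the other way: it had 81.3, 87.8 and 85.8 CPM in the CEP libraries, against 101, 99.9 and 96.1 CPM in the DMSO libraries. The groups did not overlap, and Cldn12 fell, with a log2 fold change of -0.22 ± 0.0515 (edgeR adjusted p = 0.00385). Cldn3, which lies 39.3 kb from Cldn4 on chromosome 5, gave only 1 read in CEP replicate 1, 1 read in DMSO replicate 1 and 0 in the other libraries, where a count of 0 allows up to 3 reads, or 0.153 to 0.197 CPM across the 6 libraries.

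Over the 23 genes with a Cldn symbol and a plain number, CPM summed to 445, 630.5 and 604 in the CEP libraries, against 273, 272 and 264 in the DMSO libraries. Cldn4 made up 61.6, 67.5 and 67.6% of that sum in the CEP libraries, against 36.2, 35.9 and 34.5% in the DMSO libraries. The share of Cldn12 was 18.3, 13.9 and 14.2% with CEP and 36.9, 36.8 and 36.4% with DMSO. That of Cldn9, which is not among the 37, was 8.02, 8.92 and 7.996% with CEP and 14.96, 15.5 and 16.6% with DMSO. Cldn4 and Cldn12 thus had nearly equal shares in DMSO cells, and Cldn4 alone held most of the claudin CPM in treated cells. These shares are of reads and are not corrected for length. Per kb of exon, Cldn4 stood at 203 ± 45.6 CPM per kb with CEP and 52.8 ± 2.38 CPM per kb with DMSO (mean ± SD, n = 3 each). Cldn12 stood at 20.1 ± 0.790 CPM per kb with CEP and 23.4 ± 0.581 CPM per kb with DMSO. By the exon lengths used, 1816 bases for Cldn4 and 4228 for Cldn12, Cldn4 was the more abundant per kb in both groups.

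**Figure D2:**
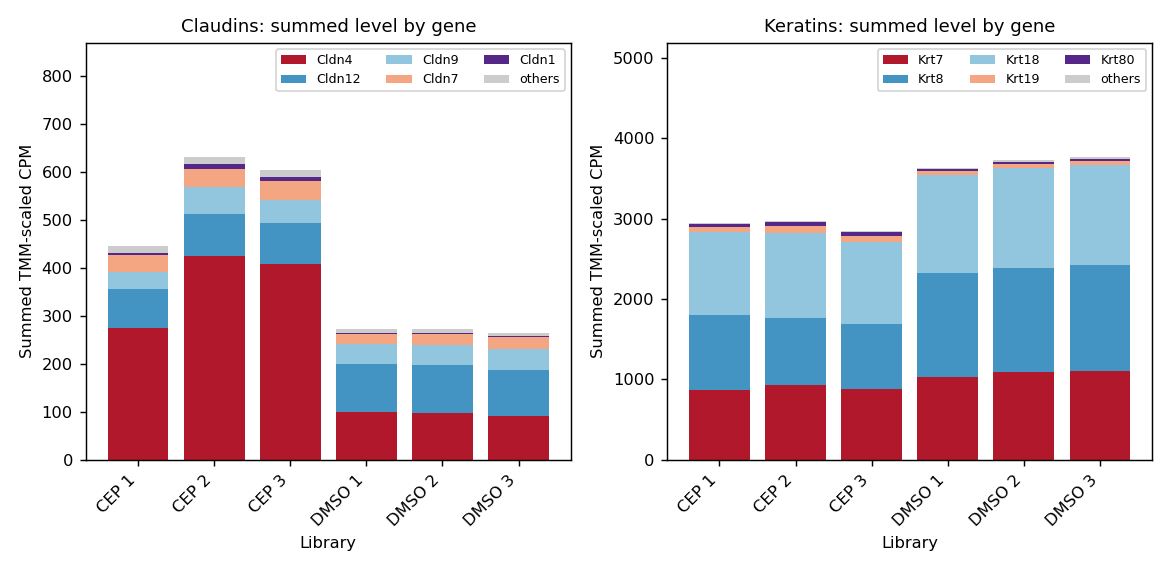
Summed TMM-scaled CPM (vertical axis) of the 23 claudin genes (left) and of the 54 keratin genes (right) in each library (horizontal axis), divided by gene. The claudin bars are taller in the 3 CEP libraries, at 445 to 630.5 CPM, than in the 3 DMSO libraries, at 264 to 273 CPM, mostly through Cldn4, and the keratin bars are shorter with CEP.

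Other transmembrane proteins of the tight junction moved with the claudins that rose. Ocln encodes occludin, a four-pass membrane protein of the strands, and had 56.8, 72.4 and 72.1 CPM in the CEP libraries, against 47.6, 51.1 and 48.2 CPM in the DMSO libraries. It rose by 0.45 ± 0.0856 on the log2 scale, with no overlap and the smallest CEP value in replicate 1 (edgeR adjusted p = 0.00120). F11r encodes the junctional adhesion molecule JAM-A and had 123, 148 and 149.8 CPM in the CEP libraries, against 101, 97.8 and 97.4 CPM in the DMSO libraries, which also did not overlap (log2 fold change 0.51 ± 0.0669, edgeR adjusted p = 6.85e-05).

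Among the cytoplasmic scaffolds, the zonula occludens genes Tjp3 and Tjp1 moved in opposite directions. Tjp3, which encodes ZO-3, had 24.3, 37.8 and 36.7 CPM in the CEP libraries, against 10.9, 13.7 and 13.3 CPM in the DMSO libraries. It rose 2.59-fold without overlap (log2 fold change 1.37 ± 0.173, edgeR adjusted p = 2.83e-04). Tjp1, which encodes ZO-1, the more abundant scaffold, had 238, 225 and 210.4 CPM in the CEP libraries, against 286, 289 and 291 CPM in the DMSO libraries, and it fell (log2 fold change -0.36 ± 0.0506, edgeR adjusted p = 8.53e-05). The ratio of Tjp3 reads to Tjp1 reads was 0.102, 0.168 and 0.174 in the CEP libraries, against 0.0381, 0.0475 and 0.0458 in the DMSO libraries. Cgn, which encodes cingulin, a rod-like protein that links ZO proteins to actin and microtubules, had 165, 215 and 209 CPM in the CEP libraries, against 109.7, 116 and 109.8 CPM in the DMSO libraries. It rose by 0.81 ± 0.0897 on the log2 scale (edgeR adjusted p = 9.35e-05), whereas its paralog Cgnl1, paracingulin, fell (log2 fold change -0.18 ± 0.0474, edgeR adjusted p = 0.00752). Cgn reads per Cgnl1 read were 0.551, 0.749 and 0.764 with CEP and 0.334, 0.356 and 0.341 with DMSO, with no overlap. Of Cgn transcript words of 50 bases 17.2% occur in another gene, so some of its reads may have been dropped. In all, 7 of the 9 tested tight junction genes rose (77.8%, beside 20.1% of all genes) and 2 fell (22.2%, beside 18.2%).

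**Figure D3:**
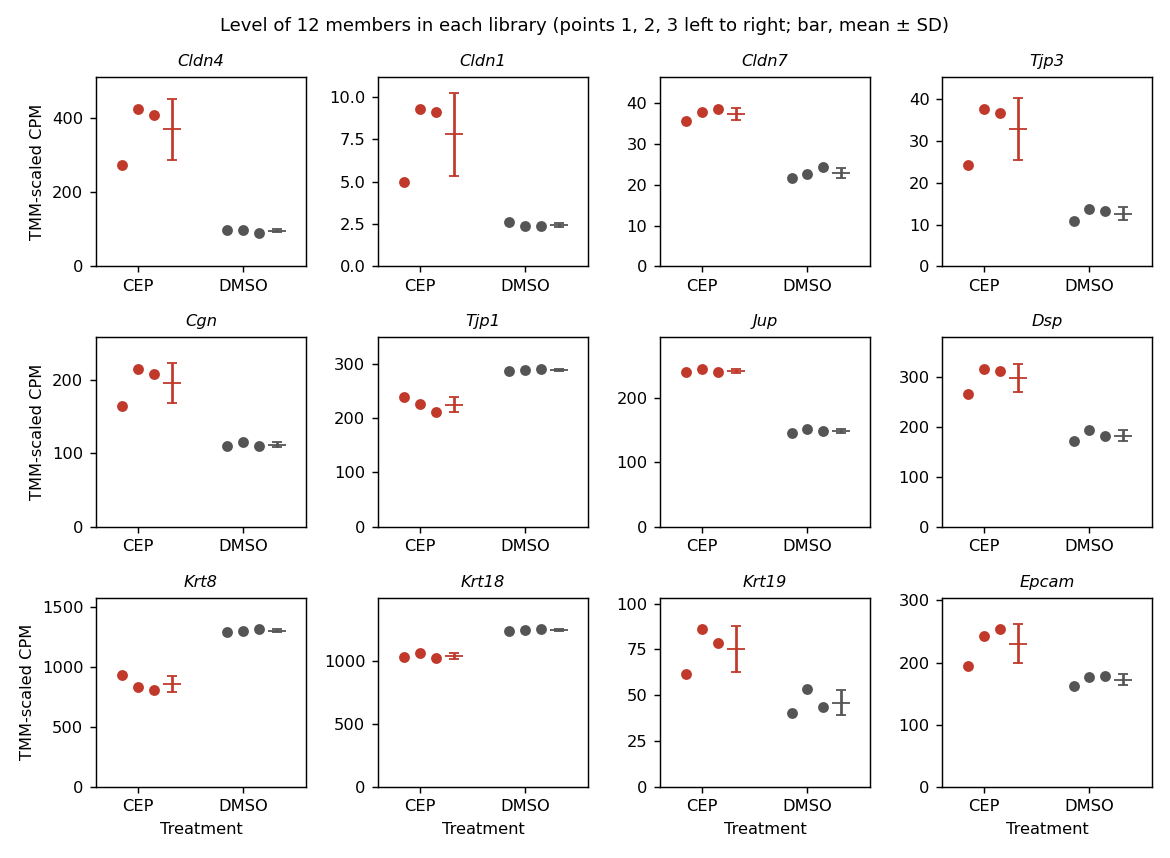
TMM-scaled CPM (vertical axes, from 0) of 12 junction and keratin genes in CEP and DMSO libraries, as points for replicates 1, 2 and 3 from left to right with the mean ± SD beside them. The groups do not overlap in any panel; CEP replicate 1 is the lowest CEP point in every panel except Tjp1, Krt8 and Krt18.

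The promoters of the genes with the widest shifts are shown for reference, with Cldn3 as the near-silent neighbour of Cldn4 and with the keratin pair Krt8 and Krt18. They run from 250 bases before to 50 bases after the annotated start (RefSeq, GRCm38.p6), 5′ to 3′ on the strand of the gene, and lie at chr5:134946885-134947184 (minus strand), chr5:134985964-134986263 (plus strand), chr16:26371790-26372089 (minus strand), chr10:81291532-81291831 (minus strand), chr3:94786433-94786732 (minus strand), chr15:102004293-102004592 (minus strand) and chr15:102027966-102028265 (plus strand). Capitals mark matches, on either strand, to the Grainyhead-like motif AACNGGTT, the E2-box CACCTG bound by ZEB and Snail factors, the AP-1 motif TGANTCA, the GC-box GGGCGG bound by Sp and KLF factors, and the E-box CACGTG bound by the MiT/TFE family.
Cldn4: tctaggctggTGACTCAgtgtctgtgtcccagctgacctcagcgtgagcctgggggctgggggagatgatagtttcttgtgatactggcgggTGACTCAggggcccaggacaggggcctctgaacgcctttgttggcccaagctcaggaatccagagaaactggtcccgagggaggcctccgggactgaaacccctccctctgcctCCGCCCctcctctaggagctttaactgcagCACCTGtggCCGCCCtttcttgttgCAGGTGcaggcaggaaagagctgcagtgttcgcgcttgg
Cldn3: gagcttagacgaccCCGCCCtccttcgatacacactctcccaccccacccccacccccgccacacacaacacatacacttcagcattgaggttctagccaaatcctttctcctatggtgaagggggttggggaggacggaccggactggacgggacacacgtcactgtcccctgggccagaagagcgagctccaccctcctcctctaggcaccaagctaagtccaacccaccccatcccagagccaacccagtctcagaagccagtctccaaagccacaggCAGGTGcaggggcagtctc
Cldn1: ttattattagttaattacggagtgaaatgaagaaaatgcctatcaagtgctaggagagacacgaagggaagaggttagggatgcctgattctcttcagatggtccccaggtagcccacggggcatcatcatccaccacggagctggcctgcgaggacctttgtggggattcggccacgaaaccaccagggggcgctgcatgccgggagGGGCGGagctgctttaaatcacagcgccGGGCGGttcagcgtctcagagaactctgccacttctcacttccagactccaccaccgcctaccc
Tjp3: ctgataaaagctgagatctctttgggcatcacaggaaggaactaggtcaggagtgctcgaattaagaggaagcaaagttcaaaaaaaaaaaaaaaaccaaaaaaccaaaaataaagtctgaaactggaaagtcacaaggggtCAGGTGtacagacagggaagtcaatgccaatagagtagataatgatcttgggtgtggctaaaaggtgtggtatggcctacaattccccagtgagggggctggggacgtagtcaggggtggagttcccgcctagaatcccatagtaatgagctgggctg
Cgn: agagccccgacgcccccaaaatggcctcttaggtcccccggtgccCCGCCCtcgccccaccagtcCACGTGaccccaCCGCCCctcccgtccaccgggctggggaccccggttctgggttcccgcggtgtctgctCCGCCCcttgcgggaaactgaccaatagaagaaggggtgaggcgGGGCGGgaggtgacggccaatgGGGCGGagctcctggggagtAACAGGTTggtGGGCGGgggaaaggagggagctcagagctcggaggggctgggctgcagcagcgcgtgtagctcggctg
Krt8: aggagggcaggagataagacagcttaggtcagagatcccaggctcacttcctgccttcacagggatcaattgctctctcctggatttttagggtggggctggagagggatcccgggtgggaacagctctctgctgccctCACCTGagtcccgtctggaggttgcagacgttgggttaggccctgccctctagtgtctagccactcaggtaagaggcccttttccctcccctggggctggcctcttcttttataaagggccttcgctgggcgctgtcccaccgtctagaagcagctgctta
Krt18: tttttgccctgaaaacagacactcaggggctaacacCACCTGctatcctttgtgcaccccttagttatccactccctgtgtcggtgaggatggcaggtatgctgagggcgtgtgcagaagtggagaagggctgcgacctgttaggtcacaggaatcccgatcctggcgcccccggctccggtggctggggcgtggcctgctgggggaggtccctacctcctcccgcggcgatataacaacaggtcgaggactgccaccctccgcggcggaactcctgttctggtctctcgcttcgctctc

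The Cldn4 promoter held 2 matches to the AP-1 motif, the first bases of which lie 240 and 158 bases before the start. It also held 2 GC-boxes that both begin before the start, and 2 E2-boxes, 1 before the start and 1 after it. The Cgn promoter held 6 GC-boxes, 1 match to the Grainyhead-like motif beginning 29 bases before the start and 1 MiT/TFE E-box. Krt8 and Krt18 each held 1 E2-box, and Cldn1 held 2 GC-boxes. A promoter was listed for 23 of the 37 genes, of which the first was read where several were listed. The E2-box stood in 13 of these 23, beside 5413 of the 27025 promoters of all genes, namely in 7 of 11 genes that rose, 4 of 6 that fell, 0 of 4 that did not pass and 2 of 2 not tested. The GC-box stood in 14 of 23, beside 35.9% of all promoters, the AP-1 motif in 2 (Cldn4 and F11r), beside 7.93%, the MiT/TFE E-box in 3, beside 7.24%, and the Grainyhead-like motif in 1 (Cgn), beside 2.01%. An ETS motif, AGGAAG, stood in 5, beside 35.1%, the ATF4-CHOP composite TGATGNAAT in 0, beside 0.969%, and an NF-kB motif in 1 (Krt14), beside 0.385%. In the 7 promoters printed no match overlapped another. A match describes the letters in the window and nothing more.

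Of the 5 tested keratins 3 fell, 1 rose and Krt14 did not pass, so 80.0% were called, beside 38.2% of all genes. Krt8, the type II chain, had 933, 831 and 809.7 CPM in the CEP libraries, against 1289, 1297 and 1313 CPM in the DMSO libraries. Every CEP value lay below every DMSO value, and Krt8 fell, with a log2 fold change of -0.60 ± 0.0564 (edgeR adjusted p = 2.29e-06). Its type I partner Krt18, which lies 23.7 kb away on chromosome 15, had 1030.0, 1062 and 1018 CPM in the CEP libraries, against 1231, 1239 and 1249 CPM in the DMSO libraries. It fell less (log2 fold change -0.26 ± 0.0463, edgeR adjusted p = 6.00e-04). Krt8 reads per Krt18 read were 0.906, 0.782 and 0.796 in the CEP libraries, against 1.05, 1.05 and 1.05 in the DMSO libraries, so the pair did not move in step. Krt7, a type II keratin of glandular and duct epithelia, had 867, 930.2 and 881 CPM in the CEP libraries, against 1028, 1089 and 1108 CPM in the DMSO libraries, and fell (log2 fold change -0.27 ± 0.0508, edgeR adjusted p = 9.04e-04). Krt19, the smallest type I keratin, rose instead: it had 61.6, 86.1 and 78.6 CPM in the CEP libraries, against 40.2, 53.4 and 43.7 CPM in the DMSO libraries (log2 fold change 0.72 ± 0.147, edgeR adjusted p = 0.00740), and the groups did not overlap.

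Per kb of exon, the 5 tested keratins of the 37 kept the same order in both groups, with Krt14 last. The length used for Krt7 was 7049 bases, against 1437 for Krt18, 1958 for Krt8, 1855 for Krt19 and 1758 for Krt14. It sums all annotated exons of the gene. If the main Krt7 transcript is shorter, its level per kb is understated, so its place in the order is uncertain. Krt18 stood at 721 ± 16.0 CPM per kb with CEP and 863 ± 6.26 CPM per kb with DMSO and Krt8 at 438 ± 33.8 CPM per kb with CEP and 664 ± 6.11 CPM per kb with DMSO (mean ± SD, n = 3 each). Krt7 followed at 127 ± 4.72 CPM per kb with CEP and 153 ± 5.94 CPM per kb with DMSO and Krt19 at 40.7 ± 6.77 CPM per kb with CEP and 24.7 ± 3.69 CPM per kb with DMSO. Of the basal keratins, Krt14 was low and did not pass, with 5.55, 6.76 and 7.46 CPM in the CEP libraries, against 5.30, 7.55 and 6.50 CPM in the DMSO libraries (log2 fold change 0.03 ± 0.166, edgeR adjusted p = 0.902), and Krt5 had 0 reads in all 6 libraries. Summed over 54 keratin genes, CPM were 2947, 2973 and 2851 in the CEP libraries, against 3634, 3728 and 3762 in the DMSO libraries, without overlap. Of Krt8 transcript words of 50 bases 29.7% also occur in another gene, chiefly the pseudogene Krt8-ps, which gave 225 reads over all libraries, and 13.9% of those of Krt14 occur in Krt16 or a further gene, so reads of these genes could be split or dropped in counting.

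Transcripts of several desmosomal plaque genes rose. Jup encodes plakoglobin, which binds desmosomal cadherins to the plaque, and had 240.0, 245 and 240.3 CPM in the CEP libraries, against 146, 151 and 148 CPM in the DMSO libraries. The groups stood far apart relative to their spread, and Jup had the smallest adjusted p of the 34 genes (log2 fold change 0.71 ± 0.0441, edgeR adjusted p = 4.92e-08). Dsp encodes desmoplakin, which anchors keratin filaments to that plaque, and had 267, 317 and 313 CPM in the CEP libraries, against 171, 194 and 182 CPM in the DMSO libraries (log2 fold change 0.71 ± 0.0679, edgeR adjusted p = 5.65e-06). Both genes were higher in every CEP library than in any DMSO library. Of the desmosomal cadherins, Dsg2, the desmoglein of simple epithelia, had 62.7, 74.6 and 79.3 CPM in the CEP libraries, against 42.5, 48.1 and 44.96 CPM in the DMSO libraries, and rose by 0.68 ± 0.0827 on the log2 scale (edgeR adjusted p = 3.85e-05). Dsc2, the matching desmocollin, had 7.90, 11.6 and 11.7 CPM in the CEP libraries, against 8.24, 8.01 and 8.03 CPM in the DMSO libraries. CEP replicate 1 lay below the DMSO values and CEP replicates 2 and 3 above them, and Dsc2 did not pass (log2 fold change 0.36 ± 0.1502, edgeR adjusted p = 0.0745), although it did without CEP replicate 1 (8.39e-04), with the edgeR adjusted p in brackets (alternatives 8.39e-04 to 0.263).

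The plakophilins, armadillo proteins of the plaque, were unequal. Pkp3 had 100.4, 110.3 and 112 CPM in the CEP libraries, against 77.8, 87.9 and 86.7 CPM in the DMSO libraries and rose by 0.35 ± 0.0606 on the log2 scale (edgeR adjusted p = 4.42e-04). The scarcer Pkp1 had 7.22, 7.48 and 7.40 CPM in the CEP libraries, against 5.12, 5.19 and 5.06 CPM in the DMSO libraries, with narrow groups that did not overlap (log2 fold change 0.52 ± 0.136, edgeR adjusted p = 0.00749). Pkp2 had 50.3, 51.6 and 47.9 CPM in the CEP libraries, against 51.6, 52.6 and 44.8 CPM in the DMSO libraries, overlapping throughout, and its log2 fold change was 0.01 ± 0.0706 (edgeR adjusted p = 0.921). Perp, a four-pass desmosomal membrane protein and a target of p53, rose by 0.21 ± 0.0478 on the log2 scale, with 120.0, 114 and 119 CPM with CEP and 101, 100.5 and 104 CPM with DMSO (edgeR adjusted p = 0.00335). The plakins Ppl and Evpl encode periplakin and envoplakin, which form dimers at desmosomes and in the cornified envelope. Ppl fell, with a log2 fold change of -0.14 ± 0.0449, with 174, 181 and 176 CPM with CEP and 199.9, 195 and 191 CPM with DMSO (edgeR adjusted p = 0.0205), a call that ended without CEP replicate 3 (0.0570), without DMSO replicate 1 (0.0734) and without DMSO replicate 2 (0.0668), with the edgeR adjusted p in brackets (alternatives 0.00280 to 0.0734). Evpl had 31.4, 30.8 and 28.3 CPM with CEP and 28.03, 25.7 and 28.2 CPM with DMSO and did not pass (log2 fold change 0.14 ± 0.0765, edgeR adjusted p = 0.162). The 10 desmosome and plakin genes gave 6 rises and 1 fall, with a median log2 fold change of 0.35.

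**Figure D4:**
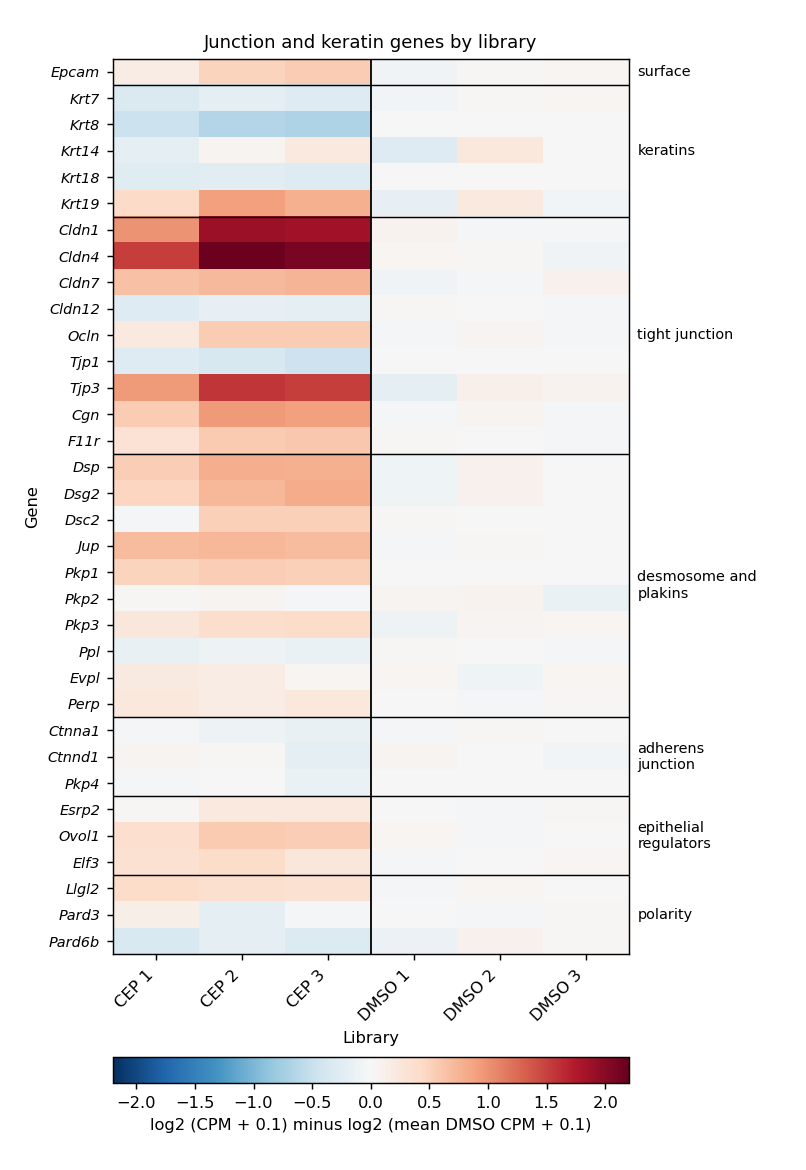
Level of the 34 tested genes (down the page, by role) in each library (across), as log2 (CPM + 0.1) minus log2 (mean DMSO CPM + 0.1); red is above the DMSO mean and blue below it. CEP replicates 2 and 3 are redder than CEP replicate 1 for most tight junction genes, whereas the adherens junction rows are pale in all 6 libraries.

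At the adherens junction 0 of the 3 tested genes passed in edgeR's quasi-likelihood test, beside 38.2% of all genes. In DESeq2 0 passed as well, and 1, Ctnna1, had an unadjusted edgeR p under 0.05. Ctnna1 encodes alpha-catenin, which couples cadherin complexes to actin, and had 476, 454 and 439 CPM in the CEP libraries, against 486, 499 and 492 CPM in the DMSO libraries. Its CEP values lay just below the DMSO values (log2 fold change -0.11 ± 0.0473, edgeR adjusted p = 0.0813), and it passed with library totals only (0.0487), with upper quartile scaling (0.0210) and without CEP replicate 1 (4.08e-04), with the edgeR adjusted p in brackets (alternatives 4.08e-04 to 0.255). Ctnnd1 encodes p120-catenin, which holds cadherins at the surface, and had 34.0, 33.0 and 27.98 CPM with CEP and 33.9, 32.4 and 31.3 CPM with DMSO. These values overlapped (log2 fold change -0.04 ± 0.0826, edgeR adjusted p = 0.757). The annotated gene Gm28635 covers 61.2% of the Ctnnd1 exons on the same strand and had 0 reads, and reads common to both could have been dropped. Pkp4, a relative of p120-catenin found at adherens junctions and desmosomes, had 119, 122 and 109 CPM with CEP and 120.3, 120.4 and 122 CPM with DMSO (log2 fold change -0.05 ± 0.0514, edgeR adjusted p = 0.468). Cdh3, the P-cadherin gene, gave 0, 12 and 6 reads in CEP replicates 1, 2 and 3, against 3, 3 and 2 reads in the DMSO libraries, too few to test. Its neighbour Cdh1, the E-cadherin gene 46.1 kb away and not among the 37, had 548, 633 and 650.3 CPM in the CEP libraries, against 447, 476 and 471 CPM in the DMSO libraries, and rose by 0.39 ± 0.0611 on the log2 scale (edgeR adjusted p = 2.11e-04).

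Epcam encodes the epithelial cell adhesion molecule, a surface glycoprotein that associates with claudin-7, and had 194, 243 and 254 CPM in the CEP libraries, against 163, 176 and 179 CPM in the DMSO libraries. The CEP values were all higher, with replicate 1 nearest to the DMSO libraries (log2 fold change 0.42 ± 0.0912, edgeR adjusted p = 0.00583). Of the polarity genes, Llgl2, a basolateral determinant, had 36.5, 35.3 and 35.0 CPM in the CEP libraries, against 26.7, 28.6 and 27.6 CPM in the DMSO libraries, and rose by 0.37 ± 0.0694 on the log2 scale (edgeR adjusted p = 9.41e-04). Pard6b, a subunit of the apical PAR complex, had 54.6, 59.6 and 55.8 CPM in the CEP libraries, against 63.0, 73.1 and 70.2 CPM in the DMSO libraries, and fell, with a log2 fold change of -0.28 ± 0.0659 (edgeR adjusted p = 0.00406). Pard3, the scaffold of that complex, had 88.2, 70.3 and 79.0 CPM in the CEP libraries, against 80.7, 79.7 and 82.6 CPM in the DMSO libraries. The CEP values lay on both sides of the DMSO values, and Pard3 did not pass (log2 fold change -0.03 ± 0.0704, edgeR adjusted p = 0.757), but it did without CEP replicate 1 (0.0397), at a log2 fold change of -0.13, with the edgeR adjusted p in brackets (alternatives 0.0397 to 0.890).

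Of the 3 tested regulators of epithelial identity 1 rose, a share of 33.3%, near the 38.2% called of all genes. Elf3, an ETS factor restricted to epithelia, had 15.5, 16.4 and 14.7 CPM in the CEP libraries, against 12.1, 12.3 and 12.7 CPM in the DMSO libraries. It rose by 0.33 ± 0.0975 on the log2 scale with no overlap (edgeR adjusted p = 0.0145), a call that ended without CEP replicate 2 (0.0660) and without DMSO replicate 2 (0.0512), with the edgeR adjusted p in brackets (alternatives 0.0132 to 0.0660). Ovol1, a zinc finger repressor that favours the epithelial state, was scarce, with 3.19, 3.71 and 3.61 CPM in the CEP libraries, against 2.53, 2.36 and 2.46 CPM in the DMSO libraries. CEP values were all above DMSO values, yet Ovol1 did not pass (log2 fold change 0.51 ± 0.199, edgeR adjusted p = 0.0554), and it did with a filter of 1 CPM in 3 libraries (0.0493) and without CEP replicate 1 (0.0404), with the edgeR adjusted p in brackets (alternatives 0.0404 to 0.147). Esrp2, which directs epithelial splicing, had 21.5, 24.5 and 24.3 CPM with CEP and 21.0, 20.6 and 21.5 CPM with DMSO and did not pass (log2 fold change 0.15 ± 0.0839, edgeR adjusted p = 0.162). Its exons overlap 219 bases (5.0% of its exons) of Nfatc3 exons on the opposite strand, and Nfatc3 had 14185 reads over all libraries. The kit kept strand, but whether counting used it is not stated, so reads of such pairs cannot be told apart for certain. The same holds for Ovol1, of whose exons 19.8% lie opposite the pseudogene Gm31166, which had 6 reads in all. It holds as well for Tjp3 (40 bases, 1.1% of its exons, opposite Apba3 with 3974 reads). Elf3 (7.3% opposite Gm26642 with 82 reads) and Krt8 (5.2% opposite Gm36026 with 151 reads) are further cases.

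CEP replicate 1 was the CEP library nearest to the DMSO libraries for 14 of the 17 junction and keratin genes that rose (82.4%), beside 1853 of all 2691 genes that rose (68.9%). Among the 7 that fell this was so for 2 (28.6%), beside 1739 of all 2434 genes that fell (71.4%). Without CEP replicate 1 the log2 fold change was 2.11 for Cldn4, 1.89 for Cldn1, 1.54 for Tjp3 and 0.91 for Cgn, and -0.68 for Krt8.

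Lists of the same structures held 85 further genes, and 57 could be tested. A rise was called for 27 and a fall for 6, and the median log2 fold change was 0.14. The share that rose was 47.4% and the share that fell 10.5%, beside the 20.1% and 18.2% of all genes given above. These lists too were chosen with earlier results known, so the shares do not test them as sets. Of 4 tested further keratins on these lists 3 rose and 0 fell, so 75.0% were called, beside 38.2% of all genes. Krt10, the other, had 2.15, 2.08 and 1.46 CPM with CEP and 3.65, 2.23 and 3.02 CPM with DMSO. Every CEP value lay below every DMSO value, but Krt10 did not pass (log2 fold change -0.65 ± 0.253, edgeR adjusted p = 0.0555). Krt87, on none of the lists, was tested and did not pass either (log2 fold change 0.08 ± 0.263, edgeR adjusted p = 0.836). Krt80 rose by 0.47 ± 0.0670 on the log2 scale, with 41.5, 43.9 and 42.5 CPM with CEP and 29.6, 30.9 and 31.7 CPM with DMSO (edgeR adjusted p = 9.63e-05). The stress keratins Krt16 and Krt17, type I chains of wounded and hyperproliferative epidermis, were scarce: Krt16 had 1.36, 2.67 and 1.98 CPM with CEP and 0.236, 1.05 and 0.409 CPM with DMSO, and Krt17 had 3.03, 4.10 and 5.77 CPM with CEP and 1.65, 3.22 and 1.94 CPM with DMSO (log2 fold changes 1.84 ± 0.439 and 0.93 ± 0.286, edgeR adjusted p = 0.00457 and 0.0196). The Krt16 log2 fold change was 2.57 without DMSO replicate 2 and 1.49 to 2.06 without any 1 of the other libraries. The Krt17 call ended without CEP replicate 3 (0.110), without DMSO replicate 1 (0.0859) and without DMSO replicate 3 (0.0868), with the edgeR adjusted p in brackets (alternatives 2.35e-04 to 0.110).

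Of 14 further tested tight junction genes, 5 were called higher and 2 lower. These shares were 35.7% and 14.3%, beside 20.1% and 18.2% of all genes. Cldn23 had 8.16, 7.09 and 7.46 CPM with CEP and 2.59, 3.22 and 2.15 CPM with DMSO and rose by 1.53 ± 0.177 on the log2 scale (edgeR adjusted p = 1.60e-05). Marveld2, the gene of tricellulin at the corners where 3 cells meet, rose by 0.48 ± 0.0788 on the log2 scale, and Cxadr, a junctional adhesion receptor for coxsackievirus and adenovirus, rose by 0.29 ± 0.0601 on the log2 scale (edgeR adjusted p = 3.24e-04 and 0.00164). Ybx3, whose product binds ZO-1 and moves to the nucleus, fell (log2 fold change -0.37 ± 0.0567, edgeR adjusted p = 1.81e-04), as did Cgnl1. None of the 5 further desmosomal cadherin genes had enough reads to test. Adherens junction genes beyond the 37 numbered 12, with 7 called higher and 1 lower, so 66.7% were called, beside 38.2% of all genes. Cdh1 and Lmo7 rose, the second by 0.49 ± 0.0950, and the beta-catenin gene Ctnnb1 rose by 0.18 ± 0.0468 on the log2 scale (edgeR adjusted p = 0.00135 and 0.00643). Vcl, which encodes the actin linker vinculin, fell (log2 fold change -0.23 ± 0.0446, edgeR adjusted p = 9.79e-04).

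Polarity genes beyond the 37 gave 3 rises and 1 fall among 10 tested, a share of 40.0%, near the 38.2% called of all genes. Crb3, the gene of an apical membrane determinant, had 5.34, 8.26 and 5.54 CPM with CEP and 2.47, 2.04 and 2.56 CPM with DMSO and rose by 1.42 ± 0.211 on the log2 scale (edgeR adjusted p = 1.41e-04). Prkcz, an atypical protein kinase C, rose by 0.45 ± 0.116 on the log2 scale, Mpp5, the gene of PALS1, by 0.15 ± 0.0566, and Lin7c fell (log2 fold change -0.17 ± 0.0534), with edgeR adjusted p = 0.00752, 0.0457 and 0.0181. The Mpp5 call ended with DESeq2 (0.105), with RLE size factors (0.0540), with no low-count filter (0.0971), with upper quartile scaling (0.0990), without CEP replicate 2 (0.155), without CEP replicate 3 (0.107), without DMSO replicate 1 (0.123) and without DMSO replicate 3 (0.211) (alternatives 0.00878 to 0.211). That of Lin7c ended without CEP replicate 2 (0.106), without CEP replicate 3 (0.0538), without DMSO replicate 1 (0.0513), without DMSO replicate 2 (0.0640) and without DMSO replicate 3 (0.0556) (alternatives 1.24e-05 to 0.106), edgeR or DESeq2 adjusted p standing in brackets in both sentences.

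Hemidesmosomes, which fix keratins to the basement membrane, had 6 tested genes, with 1 rise and 2 falls. The share that rose was 16.7% and the share that fell 33.3%, beside 20.1% and 18.2% of all genes. Plec, which encodes the cytolinker plectin, had 646, 625 and 628 CPM with CEP and 803, 789 and 808 CPM with DMSO, and fell (log2 fold change -0.34 ± 0.0453, edgeR adjusted p = 5.98e-05). The integrin gene Itga6 fell too (log2 fold change -0.29 ± 0.0494, edgeR adjusted p = 4.02e-04), and its partner Itgb4 rose by 0.16 ± 0.0487 on the log2 scale (edgeR adjusted p = 0.0195), a call that ended with upper quartile scaling (0.0510), without CEP replicate 2 (0.0537), without CEP replicate 3 (0.0969), without DMSO replicate 1 (0.0556), without DMSO replicate 2 (0.0853) and without DMSO replicate 3 (0.0729), with the edgeR adjusted p in brackets (alternatives 3.71e-04 to 0.0969).

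Of 5 further tested epithelial regulators 3 rose and 0 fell, so 60.0% were called, beside 38.2% of all genes. Ehf, an ETS factor close to Elf3, had 39.9, 41.5 and 42.0 CPM with CEP and 24.6, 23.2 and 24.2 CPM with DMSO, and rose by 0.77 ± 0.0692 on the log2 scale (edgeR adjusted p = 1.40e-06). Klf5 rose by 0.36 ± 0.0529 on the log2 scale and the splicing regulator gene Esrp1 by 0.32 ± 0.0966 (edgeR adjusted p = 1.18e-04 and 0.0163). The Esrp1 call ended without CEP replicate 2 (0.0785), without CEP replicate 3 (0.0676), without DMSO replicate 1 (0.0754) and without DMSO replicate 3 (0.0696), with the edgeR adjusted p in brackets (alternatives 6.36e-05 to 0.0785). Of 6 tested genes around the epithelial membrane proteases 5 rose and 0 fell, so 83.3% were called, beside 38.2% of all genes. Those that rose included St14, which encodes matriptase, by 0.38 ± 0.0523, its inhibitor gene Spint1 by 0.34 ± 0.0518 and Prss8, which encodes prostasin, by 0.63 ± 0.104 (edgeR adjusted p = 7.46e-05, 1.66e-04 and 3.34e-04).

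Of the mesenchymal markers 7 could be tested, with 1 rise, 1 fall and a median log2 fold change of -0.12. The share called was 28.6%, beside 38.2% of all genes. The 10 listed genes summed to 6692 to 6998 CPM with CEP and 6584 to 6764 CPM with DMSO. Vim did not pass (log2 fold change -0.12 ± 0.0605, edgeR adjusted p = 0.140), but did without CEP replicate 1 (2.37e-06), at -0.20, with the edgeR adjusted p in brackets (alternatives 2.37e-06 to 0.472). The repressor genes Zeb1, Zeb2, Snai1 and Twist1 did not pass, with log2 fold changes of 0.03 ± 0.331, 0.02 ± 0.0606, -0.24 ± 0.112 and -0.13 ± 0.0610 (edgeR adjusted p = 0.956, 0.856, 0.107 and 0.0970). Zeb1 was scarce, with 18, 13 and 18 reads in the CEP libraries, against 20, 13 and 15 in the DMSO libraries. Twist1 was lower in every CEP library than in any DMSO library, and the other repressor genes overlapped. The fibronectin gene Fn1 rose by 0.17 ± 0.0508 on the log2 scale (edgeR adjusted p = 0.0150) and S100a4 fell (log2 fold change -0.92 ± 0.276, edgeR adjusted p = 0.0170). The Fn1 call ended with the replicate number as a block (0.0532), without CEP replicate 2 (0.0780), without CEP replicate 3 (0.0504), without DMSO replicate 2 (0.0591) and without DMSO replicate 3 (0.110) (alternatives 1.35e-05 to 0.110), and that of S100a4 ended without CEP replicate 3 (0.0718), without DMSO replicate 2 (0.0804) and without DMSO replicate 3 (0.0528) (alternatives 8.03e-04 to 0.0804), each value in brackets being an edgeR adjusted p.

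**Figure D5:**
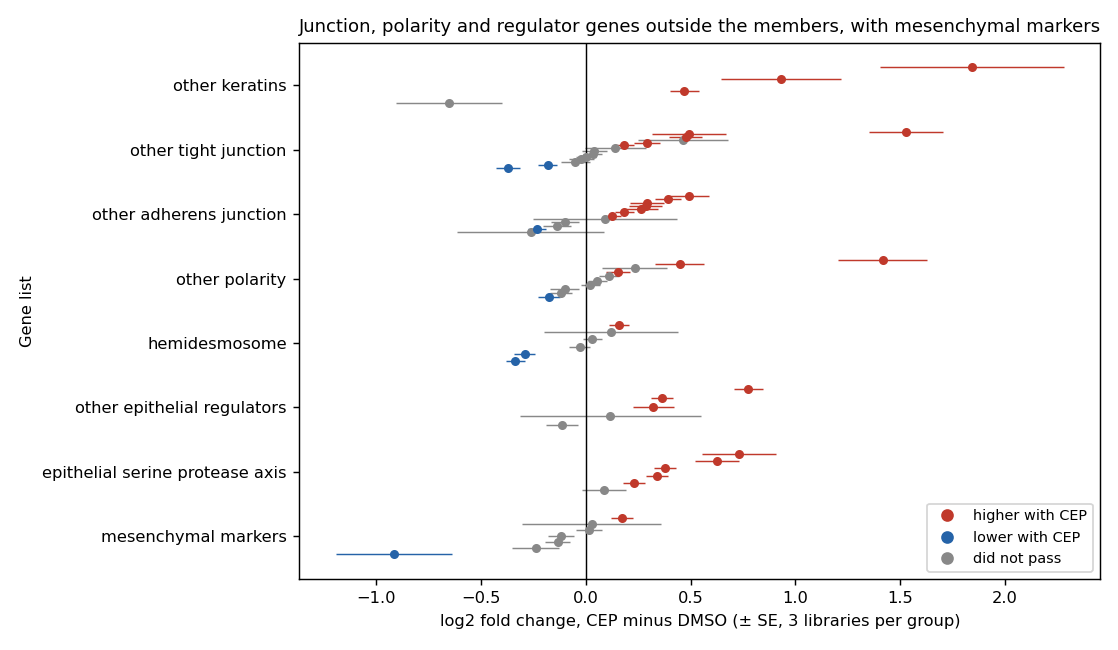
Log2 fold change (CEP minus DMSO, horizontal axis, bars of 1 SE, 3 libraries per group) of the 57 tested genes of 7 further junction, polarity and regulator lists and of 7 mesenchymal markers, 1 list per row. Red points are genes that rose, blue points genes that fell and grey points genes that did not pass; in the epithelial serine protease row no point lies left of 0.

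In the authors' annotation (GRCm38.p6), Cldn4 is ENSMUSG00000047501, chromosome 5, 134945119 to 134946934, minus strand, Cldn1 is ENSMUSG00000022512, chromosome 16, 26356642 to 26371841, minus strand and Tjp3 is ENSMUSG00000034917, chromosome 10, 81273207 to 81291581, minus strand. Cgn is ENSMUSG00000068876, chromosome 3, 94760069 to 94786515, minus strand, Jup is ENSMUSG00000001552, chromosome 11, 100368958 to 100397763, minus strand, Krt8 is ENSMUSG00000049382, chromosome 15, 101996698 to 102004482, minus strand, Krt18 is ENSMUSG00000023043, chromosome 15, 102028180 to 102032027, plus strand and Krt19 is ENSMUSG00000020911, chromosome 11, 100140810 to 100148665, minus strand. All are annotated as protein-coding.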

How the data were processed

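RNA of 6 libraries of 4T1 cells (3 CEP, 3 DMSO, grouped by title) was sequenced after poly(A) selection and stranded TruSeq preparation, per the labels' protocols. The library source label reads single cell, whereas the protocols and the table are of bulk RNA. The deposited table held raw whole-number read counts per Ensembl gene, which the authors had not normalised, placed on GRCm38.p6 per the file headers. The submitters' processing notes list HISAT2, HISAT, HTSeq and DESeq2 without saying what each did. Versions, the strand setting and the annotation release were not given in the sources used here. Reads shared by overlapping or near-identical genes may have been dropped.

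Genes with low counts were removed by filterByExpr of edgeR (at least 10 reads, total at least 15). TMM scaling and the quasi-likelihood test of edgeR followed, with a robust fit, group as the only term and Benjamini-Hochberg adjustment over 13405 genes. The SE was derived as the size of the log2 fold change divided by the root of F. The test was first tried on simulated counts with 1 dispersion for all genes and no outlying library. It recovered 48% of 1.25-fold, 78% of 1.5-fold and 96% of 2-fold changes, with 6 false calls among 164. Changes near 1.25-fold could therefore be missed. Levels per kb use exon lengths from GENCODE release M21 (GRCm38), because the deposited exon length column lay within 5% of that length for only 3648 of 13393 genes. Limits for 0 reads (3 counts) cover counting error only. Chi-square per degree of freedom between replicates was 1.81 to 10.9, so no pair agreed within sampling noise.

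The alternatives were RLE, upper quartile and total scaling, DESeq2, limma-voom, no filter, 1 CPM in 3 libraries, a replicate block, each library left out, and a threshold of 0.01. All 37 genes are accounted for. Of further lists, up to 3 genes with the smallest adjusted p per direction are named, with Cdh1, Vim and Esrp1 in any case. Cldn9, Krt10, Krt87, Cd68, Pdgfra, Ptprc, Kdr, Col3a1, Lum, Cdh2, Acta2, Snai2, Zeb1, Zeb2, Snai1 and Twist1 were named after their values were seen. The 37 genes, the further lists and the motifs were chosen with earlier results of these data known. Software was Python 3.11.15, R 4.3.3, DESeq2 1.42.0, limma 3.58.1 and edgeR 4.0.16.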

Additional observations from a re-analysis of the deposited data

How the results depend on the processing

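The count of all genes changed was 3307 at an adjusted p under 0.01 and 5125 at 0.05. The 15 alternatives all kept the direction of each of the 24 called junction and keratin genes, and 22 of the 24 passed under every one; the exceptions were Ppl and Elf3. Of the 37, the count that rose was 16 to 19 and the count that fell 6 to 9 over the libraries left out in turn, while the count of all genes changed ran from 3735 to 6905. Among genes that did not pass, log2 fold changes crossed 0: with upper quartile scaling Pkp2 stood at -0.0201, and over the libraries left out in turn Pkp2 ran from -0.0625 to 0.0501, Krt14 from -0.0935 to 0.149, Ctnnd1 from -0.109 to 0.0453 and Pard3 from -0.131 to 0.0454. With the replicate number as a block, 17 of the junction and keratin genes rose and 7 fell, and the count of all genes changed was 4896. Same-numbered libraries did not deviate together (correlations of -0.0431, 0.0813 and -0.114 for replicates 1, 2 and 3). Of the CEP libraries only replicate 2 correlated best with its own number. The deviations were taken from means of 3 libraries, and CEP replicate 1 stood apart, so a weak pairing by number could be missed. The scaling alternatives moved the median of all genes by less than 0.1 on the log2 scale. Depth limits Krt5, Cldn3 and Cdh3, which could not be tested.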
